A study of Mus musculus with 6 samples.

Results

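A set of 10 growth factor and matrix genes was followed in RNA from splenic CD8+ T cells: Hbegf, Areg, Tgfa, Pdgfa, Pdgfb, Vegfa, Igf1, Osm, Mmp14 and Timp2. The 10 genes were a fixed list, chosen with earlier results of these data known. They were found by matching Ensembl identifiers to mouse symbols, and 9 of them had a row among the 19323 genes of the deposited table. The expression of Tgfa was not analysed here. The libraries came from wild-type C57BL/6 mice, 6 weeks old at the start, that received MCDHFD for 7 weeks (3 libraries) or ND for 7 weeks (3 libraries). The labels give the diets only by these abbreviations and call the mice a model of MASH, an inflammatory disease of the fatty liver. All values are normalized counts, that is reads per gene divided by a scaling factor for each library. The labels do not say that the 3 libraries of a diet came from separate animals, so p-values here refer to variation among these libraries alone, and that variation may be technical.

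The label CD8+ T cells was checked against marker genes before the results. All 16 CD8 T cell markers were detected in every library, the lowest being Cd5 at 978.9 normalized counts in MCDHFD replicate 2. The summed share of these markers among all normalized counts was 0.337% to 0.384% in MCDHFD libraries, against 0.725% to 0.731% in ND libraries. The share of the 16 red pulp macrophage markers was 2.05% to 2.48% in MCDHFD libraries, against 0.43% to 0.521% in ND libraries, so it lay above that of the CD8 T cell markers in MCDHFD libraries and below it in ND libraries. Under both diets, macrophage marker RNA was thus present beside CD8 T cell marker RNA. The totals of whole reads recovered from the values were 13188812 to 15482458 over the 6 libraries. Correlations of log2 values were 0.985 to 0.988 between libraries of the same diet and 0.896 to 0.916 between diets.

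The 10 genes belong to a set of signals and enzymes by which leukocytes act on neighbouring tissue. HB-EGF, amphiregulin and TGF-alpha are made as membrane-anchored precursors, are released by proteases such as ADAM17, and bind the EGF receptor. PDGF chains act on mesenchymal cells, VEGF-A on endothelium, IGF-1 on many cells, and oncostatin M through receptors that contain gp130. MMP14 is a protease held in the cell membrane that cuts collagen and activates pro-MMP2, a step in which TIMP2 serves as the adaptor while at higher amounts it inhibits the protease. Oncostatin M and amphiregulin are known products of activated T cells.

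Promoter windows are shown for Mmp14, which differed strongly between the diets, and for Vegfa, which did not pass the test, so that the letters before both starts can be compared. Each is the stretch of 250 bases before the RefSeq start on GRCm38.p6, written along the gene's own strand, and neither window touched an annotated exon. Capitals mark every match to the searched motifs on either strand, which are named after the sequences.
Mmp14, chr14:54431348-54431597, plus strand: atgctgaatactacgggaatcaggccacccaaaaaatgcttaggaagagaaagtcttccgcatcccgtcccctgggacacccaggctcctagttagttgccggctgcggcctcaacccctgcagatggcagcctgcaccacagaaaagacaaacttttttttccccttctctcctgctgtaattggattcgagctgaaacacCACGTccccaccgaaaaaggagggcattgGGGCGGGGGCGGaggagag
Vegfa, chr17:46032378-46032627, minus strand: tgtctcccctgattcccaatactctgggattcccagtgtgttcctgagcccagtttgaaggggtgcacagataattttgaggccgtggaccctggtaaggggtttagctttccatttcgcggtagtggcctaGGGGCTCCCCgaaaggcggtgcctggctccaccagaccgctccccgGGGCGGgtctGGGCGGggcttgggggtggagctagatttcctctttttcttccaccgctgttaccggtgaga

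RefSeq windows were found for 7 of the 10 genes, 9 windows in all because Pdgfa and Vegfa have a pair each. None was found for Hbegf, Pdgfb or Osm. Annotated exons covered all 250 bases of the Igf1 window and 203 of the Timp2 window. They also covered 86 and 232 bases of the Pdgfa windows and 218 of the Vegfa window that is not printed. Matches there may thus lie in transcribed sequence. Both strands were searched. The GC box GGGCGG was the commonest match, in 8 of the 9 windows, against 32.7% of all 32851 windows. The Mmp14 window held it at positions -19 to -14 and -13 to -8, counted back from the base before the start, and the printed Vegfa window at -72 to -67 and -62 to -57. The HIF element ACGTG, which is also part of the E-box CACGTG, was found in the Mmp14 window at -48 to -44, read on the other strand, and in the other Vegfa window, against 16.6% of all windows. The NF-kB motif was found in the printed Vegfa window at -118 to -109 and in a Pdgfa window, against 7.25% of all. The AP-1 motif TGANTCA was found in the Igf1 window alone (6.75% of all windows), and the ETS motif GGAAGT (19.7%) and the CRE TGACGTCA (1.55%) in the Areg window alone. No member window held the STAT motif TTCNNNGAA (7.02%), the E-box CACGTG (6.02%) or the ATF4 element TGATGNAA (3.45%). A match describes the letters and is not a measured binding site. The G and C content of the 9 windows was 52.8% to 72.4%, against a median of 52.4% over all windows.

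MCDHFD libraries were set against ND libraries to see how the levels of these genes differ after 7 weeks of diet. Most were higher: 7 of the 8 genes with a mean of at least 10 normalized counts passed the test and were higher in MCDHFD libraries, and none was lower. Across all 13430 tested genes 58.4% passed in either direction and 30.3% were higher, 4065 higher and 3772 lower. With the CD8 T cell markers set equal in all libraries, a scaling that shifted the median of all tested genes by 1.05 on the log2 scale, 11294 genes were higher and 424 lower. The largest differences were those of Hbegf and Mmp14, at 8.82-fold and 7.54-fold between the means, followed by Igf1, Pdgfb and Timp2. Osm and Pdgfa differed less, Vegfa did not pass, and Areg was near 0 in all libraries. The 8 genes had a median log2 fold change of 1.24, against 0.00 over the whole tested table. In each of the 8 genes the ND mean alone was above the minimum of 10, so that none was tested only because of its MCDHFD level. The MCDHFD and ND values did not overlap in 7 of the 8, against 65.4% of all tested genes. Because the genes were chosen with earlier results of these data known, these contrasts with the whole table do not test the set. In these bulk samples, more cells of a type and more RNA per cell cannot be told apart.

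**Figure D1:**
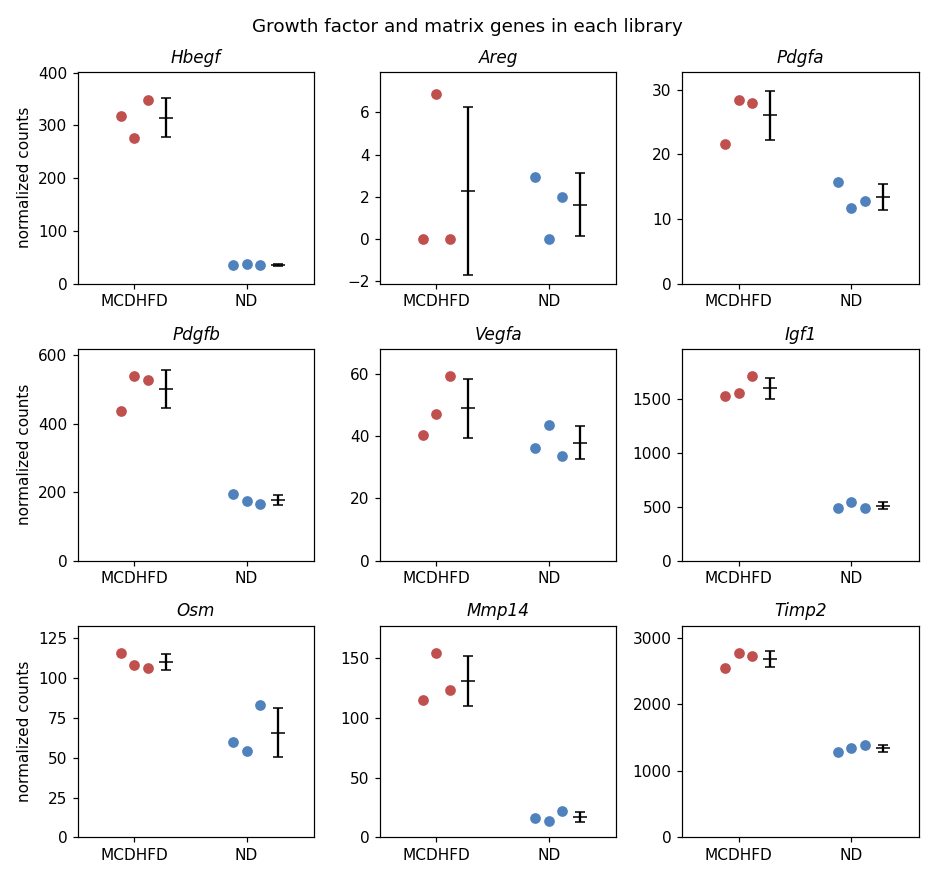
Normalized counts of the 9 measured genes in each of the 6 libraries, MCDHFD left (red) and ND right (blue), with the mean and SD of 3 libraries in black beside the points. The diets do not overlap except in Areg and Vegfa. The axes start at 0 except for Areg, where the SD bar reaches below 0.

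Hbegf, the gene of heparin-binding EGF-like growth factor, differed most. It lies on chromosome 18 at 36504927 to 36515805 on the minus strand in mm10 (ENSMUSG00000024486). It had 318, 275 and 349 normalized counts in the MCDHFD libraries, against 35.2, 37.0 and 34.6 in the ND libraries. The lowest MCDHFD library was thus far above the highest ND library, and the ND libraries lay within a narrow band. The means were 314 ± 37.1 in MCDHFD and 35.6 ± 1.21 in ND (SD, n = 3 each), a log2 fold change of 3.10 with an SE of 0.14 (limma adjusted p = 4.15e-07). By log2 fold change Hbegf was at percentile 98.1 of the tested genes.

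Areg, the gene of amphiregulin, an EGF receptor ligand known from regulatory T cells and innate lymphoid cells in tissue repair, was near the detection limit. It lies on chromosome 5 at 91139599 to 91148432 on the plus strand (ENSMUSG00000029378). Its values were 0, 6.88 and 0 normalized counts in MCDHFD libraries, against 2.94, 0 and 1.98 in ND libraries, and the diets overlapped. Its mean was below the minimum of 10, and no fold is given. A difference in Areg was not detectable at this depth.

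The PDGF ligands were both higher. Pdgfb, the gene of the PDGF B chain (chromosome 15, 79995874 to 80014977, minus strand, ENSMUSG00000000489), had 439, 539 and 529 normalized counts in MCDHFD libraries, against 194, 175 and 165 in ND libraries. Every MCDHFD library was more than 2 times every ND library. Its log2 fold change was 1.49 with an SE of 0.11 (limma adjusted p = 6.41e-06).

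Pdgfa, the gene of the PDGF A chain (chromosome 5, 138976014 to 138997370, minus strand, ENSMUSG00000025856), was much lower in count. It had 21.6, 28.5 and 27.96 normalized counts in MCDHFD libraries, against 15.7, 11.7 and 12.9 in ND libraries, with no overlap. The log2 fold change was 0.91 with an SE of 0.28 (limma adjusted p = 0.0202). That call was not stable: without MCDHFD replicate 2, MCDHFD replicate 3 or ND replicate 2 the limma adjusted p was 0.0642, 0.0659 and 0.0604, and DESeq2 on the recovered reads of all 6 libraries gave adjusted p = 0.0795, while edgeR on the same reads called it (adjusted p = 0.0205). Pdgfa also shares 813 bases of exon with 6330403L08Rik on the opposite strand, which averaged 30.6 normalized counts in MCDHFD and 13.1 in ND. No source used here gives the strand setting of the counting, so reads of the pair cannot be told apart.

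Vegfa, the gene of the main growth factor of blood vessels (chromosome 17, 46016993 to 46032369, minus strand, ENSMUSG00000023951), had 40.5, 47.2 and 59.3 normalized counts in MCDHFD libraries, against 36.2, 43.8 and 33.7 in ND libraries. The diets overlapped, since ND replicate 2 was above MCDHFD replicate 1. Its log2 fold change was 0.35 with a 95% interval of -0.15 to 0.86 (limma adjusted p = 0.201). A rise of that size could not be told from the spread between libraries. With the CD8 T cell markers set equal, Vegfa passed at a log2 fold change of 1.404 (limma adjusted p = 0.000365).

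Igf1, the gene of insulin-like growth factor 1, made mainly by liver under growth hormone and also by macrophages, lies on chromosome 10 at 87858265 to 87937042 on the plus strand (ENSMUSG00000020053). It had 1528, 1551 and 1708 normalized counts in MCDHFD libraries, against 489, 546 and 487 in ND libraries. The libraries of each diet were close together and far from those of the other diet. Means were 1596 ± 97.8 in MCDHFD and 507 ± 33.2 in ND (SD, n = 3 each), 3.15-fold apart, with a log2 fold change of 1.65 with an SE of 0.07 (limma adjusted p = 3.83e-07).

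Osm, the gene of oncostatin M, an interleukin-6 family cytokine of activated T cells and myeloid cells, lies on chromosome 11 at 4236420 to 4241026 on the plus strand (ENSMUSG00000058755). It had 116, 108 and 106 normalized counts in MCDHFD libraries, against 59.7, 54.5 and 83.1 in ND libraries. The MCDHFD libraries were nearly equal, and ND replicate 3 stood above the other ND libraries but below all MCDHFD libraries. The log2 fold change was 0.76 with an SE of 0.18 (limma adjusted p = 0.00679). Leaving out single libraries gave 0.63 to 0.94, the highest when ND replicate 3 was left out.

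Mmp14, the gene of membrane-type matrix metalloprotease 1 (chromosome 14, 54431612 to 54445364, plus strand, ENSMUSG00000000957), had 115, 154 and 123 normalized counts in MCDHFD libraries, against 16.6, 13.6 and 21.8 in ND libraries. The lowest MCDHFD library stood well above the highest ND library. Means were 131 ± 20.8 in MCDHFD and 17.3 ± 4.12 in ND (SD, n = 3 each), a log2 fold change of 2.86 with an SE of 0.23 (limma adjusted p = 1.04e-05).

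Timp2, the gene of its inhibitor and adaptor (chromosome 11, 118301069 to 118355740, minus strand, ENSMUSG00000017466), was the most abundant of the 9 genes. It had 2542, 2772 and 2731 normalized counts in MCDHFD libraries, against 1290.2, 1343 and 1385 in ND libraries. Both diets had little spread between libraries. Means were 2682 ± 123 in MCDHFD and 1339 ± 47.3 in ND (SD, n = 3 each), a fold of 2.002 and a log2 fold change of 1.001 with an SE of 0.06 (limma adjusted p = 1.34e-06). A two-sided exact permutation test gave p = 0.1 for each of the 7 genes whose diets did not overlap, the smallest p that 3 against 3 libraries allow, and p = 0.2 for Vegfa.

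**Figure D2:**
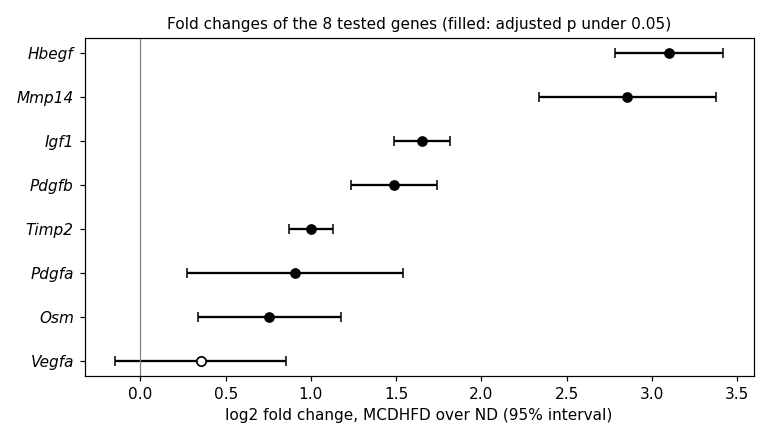
Log2 fold change of MCDHFD over ND from limma for the 8 tested genes, with 95% intervals. Filled points passed an adjusted p of 0.05. Hbegf (3.10) and Mmp14 (2.86) lie apart from the other 6, and the interval of Vegfa, the open point, includes 0.

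Levels of different genes were compared per kilobase of annotated exon. Timp2 had the highest level under both diets, 688 ± 31.5 normalized counts per kilobase in MCDHFD and 344 ± 12.2 in ND (SD, n = 3 each). Igf1 followed with 161 ± 9.88 in MCDHFD and 51.2 ± 3.36 in ND, and Pdgfb with 121 ± 13.3 in MCDHFD and 42.8 ± 3.48 in ND. Below these the order differed between the diets. Hbegf was in place 4 in MCDHFD libraries (65.0 ± 7.67 per kilobase) and in place 6 in ND libraries (7.37 ± 0.25). Mmp14 was in place 6 in MCDHFD libraries (21.9 ± 3.50) and in place 8 in ND libraries (2.91 ± 0.692). Osm (48.4 ± 2.22 in MCDHFD, 29.0 ± 6.72 in ND) and Vegfa (11.4 ± 2.23 in MCDHFD, 8.84 ± 1.23 in ND) lay below Hbegf in MCDHFD libraries and above it in ND libraries. Neighbours in this order did not overlap between libraries under either diet, except for Mmp14 and Areg in ND. The lengths count all annotated exons, so a gene with long unused exons has too low a level on this scale.

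**Figure D3:**
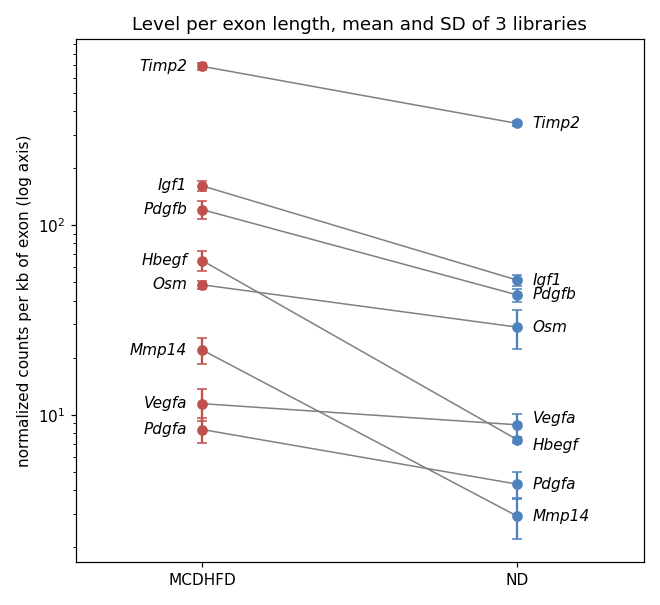
Mean normalized counts per kilobase of annotated exon with SD over 3 libraries, on a log axis, for the 8 tested genes in MCDHFD (left) and ND (right). Lines join the same gene. The lines of Hbegf and Mmp14 are the steepest and cross others, while Timp2, Igf1 and Pdgfb keep places 1 to 3.

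Over all 102 related genes, 53 were tested, of which 27 were higher, 8 lower and 18 did not pass. Thus 66.0% passed against 58.4% of all tested genes, in lists also chosen with earlier results of these data known. Of the 27 higher genes, Nrg4, Mmp27 and Fbln5 had an ND mean below the minimum of 10 and were tested only because of their MCDHFD level. The other EGF receptor family ligands were mostly near 0: of 8 listed genes 7 had a row and 3 were tested, of which 2 were higher and none lower. Egf, the gene of epidermal growth factor, averaged 160 ± 6.10 normalized counts in MCDHFD and 97.1 ± 18.1 in ND (log2 fold change 0.73, limma adjusted p = 0.00395). Nrg4, a neuregulin, had 13.2, 17.7 and 26.8 in MCDHFD libraries and 4.89, 2.92 and 8.91 in ND libraries, and its call ended without MCDHFD replicate 3 (limma adjusted p = 0.0577). Of 10 receptor and shedding genes 8 were tested, with 4 higher and 1 lower. The EGF receptor gene Egfr had 1.12 to 3.96 normalized counts over all libraries. Rhbdf2, whose product iRhom2 brings ADAM17 to the cell surface, averaged 1646 ± 76.4 in MCDHFD and 684 ± 17.7 in ND (log2 fold change 1.26, limma adjusted p = 4.99e-07). Errfi1, a feedback inhibitor of the EGF receptor family, was also higher (log2 fold change 0.52). Frmd8, which stabilises the iRhom complex, was lower (log2 fold change -0.55) but higher with the CD8 T cell markers set equal (0.50). Adam17 itself had 1288 to 1412 in MCDHFD libraries and 1369 to 1401 in ND libraries and did not pass (log2 fold change -0.06, limma adjusted p = 0.426). Erbb2, the shared partner of the receptor family, had 263 to 304 in MCDHFD libraries and 71.5 to 103 in ND libraries (log2 fold change 1.66). Egfr, Adam17 and Erbb2 were picked for the text after their values were seen.

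Both tested genes of the other PDGF and VEGF ligands were higher. Pdgfc, the gene of the PDGF C chain, had 680, 829 and 924 normalized counts in MCDHFD libraries, against 55.8, 61.3 and 84.1 in ND libraries (log2 fold change 3.59, limma adjusted p = 5.28e-07). Its difference was larger in size than that of Pdgfa or Pdgfb, though the sizes were not tested against each other. Vegfb was higher by less (log2 fold change 0.53). Of 7 receptor genes 5 were tested, with 1 higher and 1 lower. Nrp1, a co-receptor of VEGF, averaged 1145 ± 116 in MCDHFD and 272 ± 22.9 in ND (log2 fold change 2.07, limma adjusted p = 5.07e-07). Kdr, the main VEGF-A receptor of endothelium, had 24.5, 2.95 and 3.36 in MCDHFD libraries and 27.4, 27.2 and 39.6 in ND libraries. Its log2 fold change of -2.07 (limma adjusted p = 0.0252) was -2.94 without MCDHFD replicate 1, and the call ended without MCDHFD replicate 2 or 3 or ND replicate 1 or 3 (limma adjusted p = 0.0545 to 0.0825). It also ended with the CD8 T cell markers set equal (log2 fold change -1.02, limma adjusted p = 0.146) and in edgeR on the recovered reads of all 6 libraries (adjusted p = 0.0604), while DESeq2 on the same reads called it (adjusted p = 0.0328). The PDGF receptor genes, markers of mesenchymal cells, were low, with Pdgfrb at 5.87 to 20.1 and Pdgfra at 0 to 8.95 over all libraries, both looked up after the other values were seen.

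Of 15 genes of the IGF axis 6 were tested, with 3 higher and 1 lower, all by less than the difference of Igf1. Insr, the insulin receptor gene, averaged 1147 ± 39.2 normalized counts in MCDHFD and 913 ± 34.4 in ND (log2 fold change 0.33, limma adjusted p = 0.00134). Igf1r, the gene of the IGF-1 receptor, had a log2 fold change of 0.36, and its call ended without MCDHFD replicate 2 (limma adjusted p = 0.0515). Igfbp4, an IGF-binding protein gene, was lower (log2 fold change -0.21) but higher with the CD8 T cell markers set equal (0.84). Of 10 genes of the interleukin-6 family 5 were tested, with 1 higher and 2 lower. The shared receptor chain gp130, gene Il6st, averaged 3163 ± 235 in MCDHFD and 4536 ± 1062 in ND (log2 fold change -0.50, limma adjusted p = 0.0139). ND replicate 3 was the highest at 5754, and without it the log2 fold change was -0.31 (limma adjusted p = 0.0109). The cytokine gene Clcf1 was also lower (log2 fold change -0.48), and both turned higher with the CD8 T cell markers set equal (0.55 for Il6st and 0.57 for Clcf1). Il6ra, the interleukin-6 receptor gene, was slightly higher (log2 fold change 0.18). The specific receptor gene of oncostatin M, Osmr, was read after its values were seen and had 0 to 5.65 over all libraries.

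Of 18 other matrix metalloprotease genes 8 were tested, with 5 higher, among them Mmp27, and 1 lower. That split leaves out Mmp13, whose mean over all libraries was below the minimum for testing. Looked up after the values were seen, Mmp13 had 0, 1.97 and 0 normalized counts in MCDHFD libraries, against 23.5, 21.4 and 8.91 in ND libraries. Mmp19 had 499, 556 and 540.3 normalized counts in MCDHFD libraries, against 39.2, 40.9 and 37.6 in ND libraries (log2 fold change 3.73, limma adjusted p = 9.10e-08). Mmp9, a gelatinase gene that is also a neutrophil marker here, averaged 301 ± 70.7 in MCDHFD and 155 ± 16.9 in ND (log2 fold change 0.93, limma adjusted p = 0.00188). Mmp11 was lower (log2 fold change -0.87), but its value was 0.19 and did not pass with the CD8 T cell markers set equal (limma adjusted p = 0.569). Its call also ended without MCDHFD replicate 2, ND replicate 1 or ND replicate 2 (limma adjusted p = 0.0744 to 0.0941) and in DESeq2 on 6 libraries (adjusted p = 0.113). Mmp2, whose product MMP14 and TIMP2 activate together, had 0 to 4.86 over all libraries and was read after its values were seen. Of 4 other inhibitor genes only Reck, a membrane-anchored inhibitor, was tested: it averaged 181 ± 7.52 in MCDHFD and 302 ± 17.4 in ND (log2 fold change -0.74, limma adjusted p = 0.00019), and was higher with the CD8 T cell markers set equal (0.31). It thus went the other way from Timp2 at the deposited scaling.

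Of 24 other matrix and repair genes 15 were tested, with 9 higher, among them Fbln5, and 1 lower. Tgm2, which cross-links matrix proteins, had 6215, 5666 and 6038 normalized counts in MCDHFD libraries, against 1046, 1141 and 1097 in ND libraries (log2 fold change 2.45, limma adjusted p = 5.65e-08). Plaur, the urokinase receptor gene, averaged 1352 ± 61.0 in MCDHFD and 830 ± 36.3 in ND (log2 fold change 0.70). Met, the receptor gene of hepatocyte growth factor, was lower (log2 fold change -1.24, limma adjusted p = 0.0133), and its call ended without ND replicate 3 (limma adjusted p = 0.0535) and with the CD8 T cell markers set equal (limma adjusted p = 0.618). Looked up after the values were seen, Postn, the gene of the matrix protein periostin, had 278, 308 and 294 in MCDHFD libraries and 16.6, 9.73 and 6.93 in ND libraries (log2 fold change 4.68). Hgf, the gene of hepatocyte growth factor, was looked up in the same way and averaged 95.3 ± 25.3 in MCDHFD and 15.4 ± 2.18 in ND (log2 fold change 2.53). The tested collagen genes, also looked up, did not pass: Col1a1 (log2 fold change -0.43, limma adjusted p = 0.643), Col4a1 (1.36, 0.058) and Col4a2 (2.16, 0.0545). Col1a2 and Col3a1 were below the minimum of 10.

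**Figure D4:**
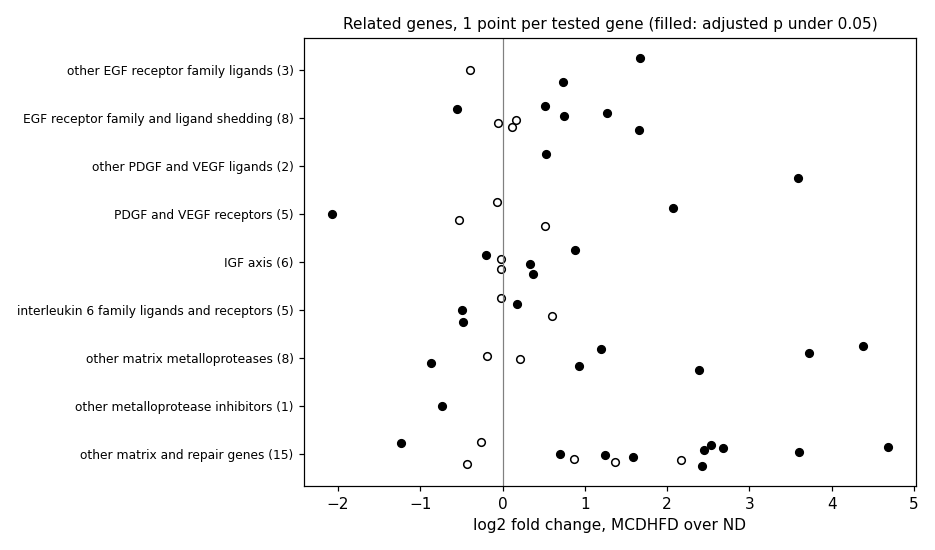
Log2 fold change of MCDHFD over ND for the 53 tested genes of the 9 related lists, 1 point per gene and the number tested in brackets. Filled points passed a limma adjusted p of 0.05. Of the other matrix metalloproteases 5 of 8 passed to the right of 0, of the other matrix and repair genes 9 of 15, and the receptor lists have passing genes on both sides of 0.

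Markers of several cell types differed between the diets in the same libraries as the growth factor genes. All 16 red pulp macrophage markers were higher in MCDHFD, with a median log2 fold change of 2.41 and a summed share 4.82-fold higher, and none of them was at 0 in any library. Their most abundant genes were Hmox1, the haem-degrading enzyme, at 63016 ± 8499 normalized counts in MCDHFD and 10278 ± 1326 in ND, and Vcam1, an adhesion molecule, at 56721 ± 5802 in MCDHFD and 12596 ± 1164 in ND. The log2 fold changes of Hbegf and Mmp14 were above that median, and those of the 6 other tested genes below it. Single macrophage markers ran from 0.81 (Treml4) to 3.07 (Cd163). Mmp14, Igf1, Pdgfb, Timp2 and Pdgfa lay inside that range, Hbegf just above it, and Osm and Vegfa below it. All 16 CD8 T cell markers were lower, with a median of -1.02. Neutrophil markers were higher in 13 of 14 tested genes, of which Elane, Mpo, Prtn3 and Ctsg were tested only because of their MCDHFD level, and their summed share was 0.0731% to 0.125% in MCDHFD libraries, against 0.00804% to 0.0142% in ND libraries. Cxcr2 did not pass (log2 fold change -0.03). Ly6g, below the minimum of 10, had 2.82 to 5.90 normalized counts in MCDHFD libraries and 2.92 to 20.6 in ND libraries. Both were looked up after the values were seen. Erythroid markers were higher in 12 of 12 (median 2.84), and monocyte markers were higher in 8 and lower in 5 of 14 (median 0.67). Dendritic cell markers were lower in 12, of which Cd209a and Siglech were tested only because of their ND level, and higher in 1 of 13, and B cell markers lower in 10 and higher in 1 of 11. The part of these cells in the differences of the growth factor genes was not tested.

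Platelet and megakaryocyte markers summed to 0.00665% to 0.00693% in MCDHFD libraries, against 0.00507% to 0.00517% in ND libraries, with 4 of 6 tested genes higher, among them Pf4, tested only because of its MCDHFD level, and 1 lower. Endothelial markers summed to 0.0377% to 0.0426% in MCDHFD libraries, against 0.0244% to 0.0248% in ND libraries, mostly through Pecam1 and Stab2. Of 7 tested endothelial genes 4 were higher and 1 was lower. Tek, a defining gene, had 0 to 3.93 normalized counts over all libraries. Of the other endothelial genes, Cdh5 had 12.8 to 28.4 and Eng 312 to 421 over all libraries, and neither passed. The 11 measured fibroblast and smooth muscle markers summed to 0.000458% to 0.000769% in MCDHFD libraries, against 0.000356% to 0.000526% in ND libraries. In at least 1 library Pdgfra, Dcn, Myh11, Rgs5 and Cxcl13 were at 0, none of them exceeded 25.4 normalized counts, and none of the 3 tested genes passed. Foxp3, the defining gene of regulatory T cells, which can make amphiregulin, had 33.6 to 38.6 normalized counts in MCDHFD libraries and 63.6 to 86.1 in ND libraries. Foxp3, Tek, Cdh5 and Eng were looked up after the values were seen.

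**Figure D5:**
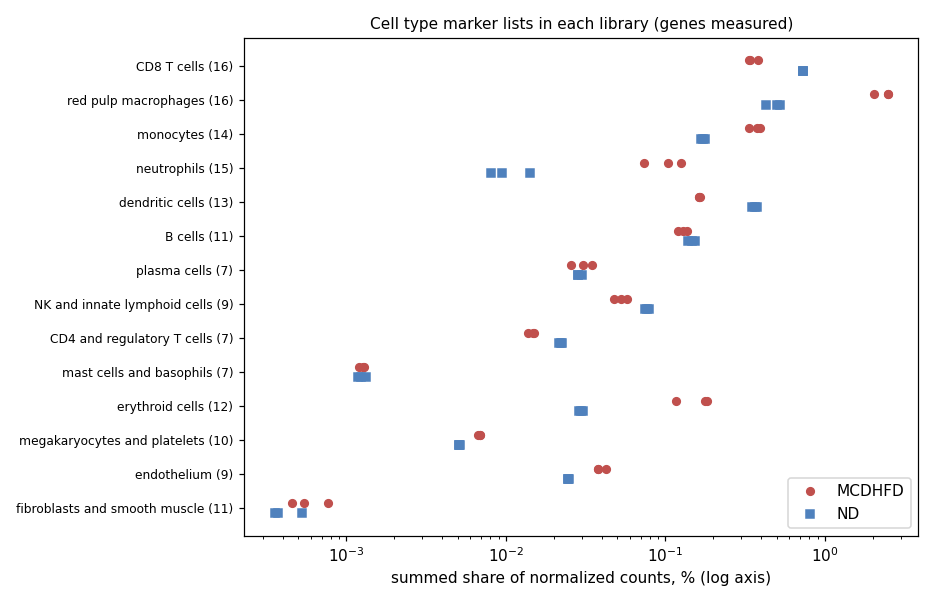
Summed share of all normalized counts, in percent on a log axis, of each cell type marker list in each library, MCDHFD (red circles) above ND (blue squares), with the number of measured genes in brackets. Red pulp macrophage, neutrophil and erythroid markers lie to the right in MCDHFD libraries, and CD8 T cell and dendritic cell markers lie to the left.

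For each tested member, the genes with the most similar profile were found by the root mean square distance between log2 values, after subtracting each gene's mean, over the 6 libraries. The search covered genes averaging 50 or more. It left out repeated symbols and placeholder symbols, such as those of the Gm or Rik kind. Nearest to Hbegf were C6, Ifi207 and Hes1, at distances of 0.12 to 0.13 on the log2 scale. Nearest to Mmp14 were Ear2, Gcnt2 and Spire1, at 0.15 to 0.16. Nearest to Igf1 were Chn2, Mpeg1 and H1f0, at 0.03 to 0.06, and nearest to Pdgfb were Fech, Lyn and Dok3, at 0.04 to 0.06. Nearest to Timp2 were Grina, Pim1 and Akt1, at 0.03. Nearest to Osm were Rasgrf2, Cptp and Gas8, at 0.07 to 0.08. Nearest to Pdgfa were Gnaq, Alad and Mospd2, at 0.07 to 0.08, and nearest to Vegfa were Gadd45a, Cep128 and Thumpd2, at 0.06 to 0.09. The 6 libraries come from 2 diets, so the size of the difference between diets is part of this measure.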

How the data were processed

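Total RNA was isolated with TRIzol and sequenced as cDNA libraries from either of a pair of ABclonal kits, for whole RNA or for mRNA, per the labels' protocols, which do not assign kits to libraries. Per the submitters' processing notes the build was mm10; aligner, counter, strand setting and annotation are unknown from these sources. The authors deposited normalized counts, as the table's name says, treated here as a signal. Division by 1 scaling factor per library was read from the values: 100% of values in each library were whole multiples of its smallest value above 0, at a tolerance of 0.01. The planned count tests left out ND replicate 3, whose step of 0.99 a preliminary unit rule did not accept, although its values were as whole as those of the other libraries. Count tests on all 6 libraries were therefore added after seeing the data.

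Symbols were matched by identifier for 19202 of 19323 genes, and coordinates and exon lengths came from GENCODE M21. Genes with a mean of at least 10 were tested on log2 of the value plus 1, on which scale fold changes of low genes are understated. The test was limma 3.58.1 (intensity trend, diet only, R 4.3.3) with Benjamini-Hochberg adjustment over all 13430 tested genes at 0.05. Alternatives were edgeR 4.0.16 and DESeq2 1.42.0 on recovered reads of 5 and of 6 libraries, other pseudocounts, filters and scalings, library weights, a replicate block and leaving out each library. The text names all members and, of each related list, up to 2 passing genes of the highest mean per direction; other genes are marked. Members and lists were chosen with earlier results of these data known, and some lists share genes. Within a diet, recovered reads of the 5 libraries differed by more than sampling noise (chi-square per degree of freedom 6.55 to 12.5 over 4 pairs).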

Additional observations from a re-analysis of the deposited data

How the results depend on the processing

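The 7 genes called higher became 6 to 8 under the alternatives run. Hbegf, Pdgfb, Igf1, Osm, Mmp14 and Timp2 kept direction and call in all 20 alternatives each, with log2 fold changes of 2.97 to 4.15, 1.41 to 2.54, 1.57 to 2.70, 0.56 to 1.81, 2.61 to 3.91 and 0.94 to 2.05. The upper end of each range came from setting the CD8 T cell markers equal. That step raised all genes by the same 1.05, so keeping a higher direction under it is no test. Pdgfa lost its call in 8 of 19, among them quantile scaling (log2 fold change 0.72, limma adjusted p = 0.0507), and Vegfa gained one with the CD8 T cell markers set equal. That scaling turned the split of all called genes, 4065 higher and 3772 lower, to 11294 higher and 424 lower. Count tests on recovered reads of 5 libraries, without ND replicate 3, called 6 members with edgeR and with DESeq2 (Pdgfa adjusted p = 0.0541 and 0.138). On all 6 libraries, a choice made after seeing the data, edgeR called 7 and DESeq2 6. Among the related genes named, Kdr (adjusted p = 0.195), Igf1r (0.079) and Met (0.0922) were not called by DESeq2 on 5 libraries but were on 6. Without each library in turn, 6 to 7 members and 7072 to 7673 genes were called. Whether same-numbered libraries pair was not settled. Their correlations of deviations were small (0.01 to 0.06), yet 5 of 6 libraries correlated best with their own number. With the replicate number as a block 7 members and 7707 genes were called. Below about 10 normalized counts, as in Areg, depth limits what can be seen.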
